A study of Mus musculus with 9 samples.

Results

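The 10 genes described here encode the chondroitin sulfate proteoglycans and tenascins of the neural extracellular matrix together with a link protein. They are the lecticans Bcan (brevican), Ncan (neurocan), Vcan (versican) and Acan (aggrecan), the link protein gene Hapln1, the tenascins Tnc and Tnr, and the membrane proteoglycans Ptprz1, Cspg4 (NG2) and Cspg5 (neuroglycan C). They were chosen by symbol, and all 10 were among the 55704 Ensembl genes of the deposited expression table. The cells were neural stem cells (NSCs) from the subventricular zone of adult C57BL/6 mice 8 to 9 weeks old, with 2 females and 2 males pooled for each isolation, kept for at least 3 passages and plated on poly-L-ornithine and laminin for 16 to 18 h. bFGF/EGF-treated NSCs were the day 0 controls in 20 ng/mL bFGF and 20 ng/mL EGF. bFGF/BMP4-treated NSCs were grown for 6 days in 20 ng/mL bFGF and 20 ng/mL BMP4, and BMP4-treated NSCs for 6 days in 20 ng/mL BMP4 with neither bFGF nor EGF. Each group held 3 libraries, labelled as biological replicates, and whether these came from separate isolations was not given in the sources used here, so the p-values measure the spread between these libraries. The controls were not cultured for the same time as the treated cells. Time in culture and loss of EGF therefore cannot be told apart from the addition of BMP4 in the 2 comparisons with bFGF/EGF. In BMP4 relative to bFGF/EGF the loss of bFGF cannot be told apart from these either. The 2 comparisons with bFGF/EGF also share their control libraries.

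In neural tissue the lecticans form ternary assemblies. Their N-terminal domains bind hyaluronan, an interaction held in place by link proteins of the Hapln family, and their C-terminal lectin-like domains bind tenascins, tenascin-R in particular. Perineuronal nets are the best known of these assemblies, and tenascin-C and chondroitin sulfate proteoglycans are also part of the matrix of the subventricular zone. Ptprz1 is a receptor-type tyrosine phosphatase that carries chondroitin sulfate and binds pleiotrophin, contactin-1 and tenascins. NG2 marks oligodendrocyte precursors and mural cells, and neuroglycan C is a transmembrane proteoglycan with an EGF-like domain.

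The composition of this matrix transcript set differed in each medium. Neurocan and brevican mRNA reached their highest levels in bFGF/BMP4-treated NSCs, where Ncan alone took 2.33% ± 0.12 (SD, n = 3) of all fragments on genes, against 0.0983% ± 0.0067 in bFGF/EGF-treated NSCs and 0.214% ± 0.083 in BMP4-treated NSCs. Tenascin-C fell and tenascin-R rose under both BMP4 media. Ptprz1 and Cspg5 were lower in BMP4 alone than in bFGF/BMP4, Cspg4 fell in both BMP4 media, and Acan was barely detected in any library.

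**Figure D1:**
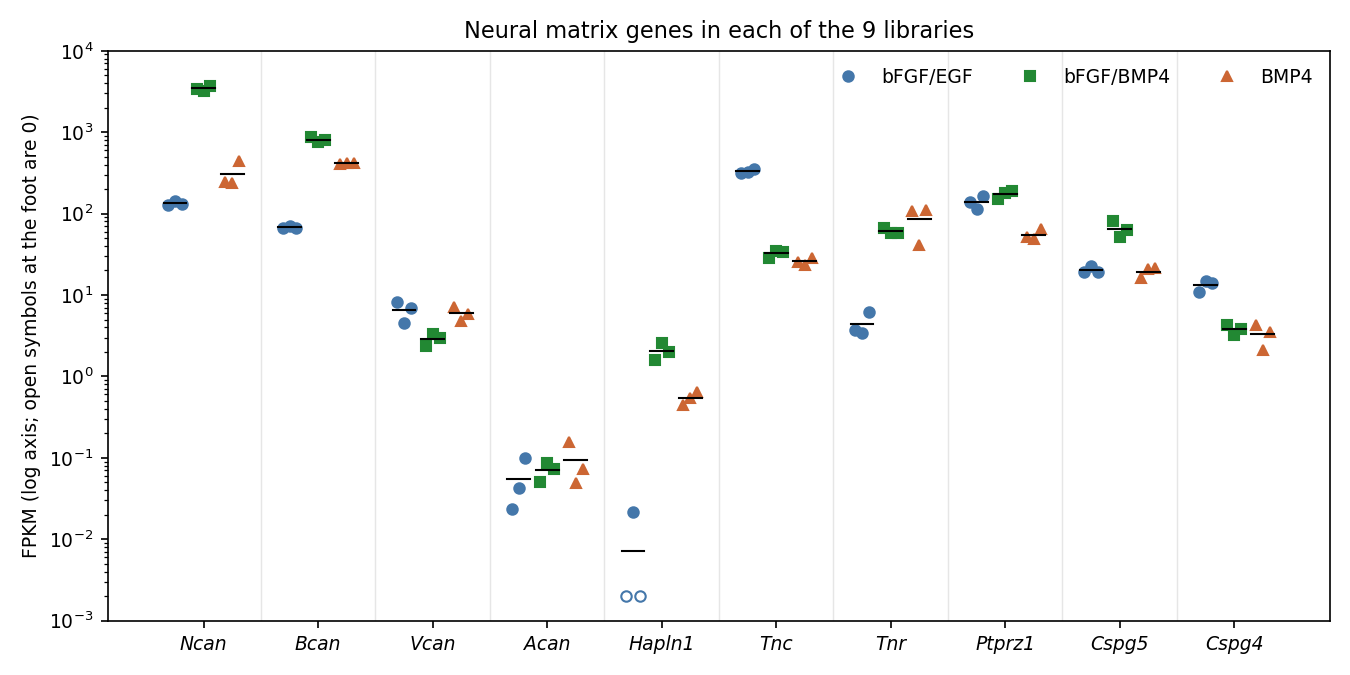
FPKM of the 10 genes in each of the 9 libraries on a log axis, with 1 symbol per library, a bar at each group mean and open symbols at the foot for 0. Ncan sat between 3247 and 3670 in the 3 bFGF/BMP4 libraries and at or below 441 in the other 6, while Tnc sat between 314 and 354 in bFGF/EGF and at or below 35.2 elsewhere.

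The libraries held 15902180 to 17288931 fragments on genes, and their log2 values correlated across genes at 0.950 to 0.964 within a group and 0.810 to 0.915 between groups. Genes were taken as changed where the adjusted p reached 0.05 and the difference reached 2-fold in a limma fit over 20207 genes on log2(FPKM + 0.1), where FPKM is fragments scaled to transcript length and library size. Sox2, which marks neural progenitors, averaged 167, 137 and 137 FPKM in the control, bFGF/BMP4 and BMP4 groups, and Nes averaged 151, 3.55 and 15.8 FPKM. All 7 microglial markers and all 8 pericyte and mural markers examined were below 1 FPKM in the bFGF/EGF and bFGF/BMP4 libraries. In the BMP4 libraries 6 of 7 and 7 of 8 were. The summed FPKM of 9 neuron markers was 79.41 to 95.76 in bFGF/EGF, 48.19 to 53.95 in bFGF/BMP4 and 144.4 to 216.4 in BMP4. For 5 ependymal markers it was 7.867 to 12.35, 10.41 to 11.38 and 57.97 to 70.12. In BMP4 relative to bFGF/EGF, 2 of 7 tested neuron markers were higher and 1 lower, and all 4 tested ependymal markers were higher. Of all tested genes 21.3% were called higher and 15.4% lower there. The summed FPKM of 8 astrocyte markers was 177 to 243 in bFGF/EGF, 700 to 779 in bFGF/BMP4 and 3759 to 4658 in BMP4, a sum carried mostly by Gfap in BMP4 (means of 0.0926, 19.4 and 2566 FPKM). Of the 8, 7 were higher and Aldh1l1 (135, 24.2 and 58.1 FPKM) was lower in each BMP4 medium relative to bFGF/EGF. In BMP4 relative to bFGF/BMP4, 5 were higher, among them Gfap and Aqp4 (0.527, 212 and 778 FPKM), while Slc1a2 (12.6, 175 and 65.5 FPKM) and Gjb6 (0, 2.96 and 0.238 FPKM) were lower. These are bulk RNA values, in which a lower share of cells expressing a gene and less of its RNA per cell cannot be told apart.

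To show the regulatory sequence beside the genes whose levels differed most between media, windows of 250 bases are printed for Ncan, Hapln1, Tnr and Tnc. Each lies directly upstream of the start site of the canonical transcript in GRCm39 (mm39), the build of the files. They are given on the coding strand from 5′ to 3′ and end 1 base before that start site. The window of Ncan is chr8:70573524-70573773 on the minus strand, that of Hapln1 is chr13:89687665-89687914 on the plus strand, that of Tnr is chr1:159351089-159351338 on the plus strand, and that of Tnc is chr4:63965444-63965693 on the minus strand. No window overlapped an annotated exon of its own gene. The Hapln1 window lies within the annotated span of its gene, which begins at chr13:89686581, upstream of the canonical start site. Capitals mark exact matches, on either strand, to any of the 9 short motifs searched.
Ncan: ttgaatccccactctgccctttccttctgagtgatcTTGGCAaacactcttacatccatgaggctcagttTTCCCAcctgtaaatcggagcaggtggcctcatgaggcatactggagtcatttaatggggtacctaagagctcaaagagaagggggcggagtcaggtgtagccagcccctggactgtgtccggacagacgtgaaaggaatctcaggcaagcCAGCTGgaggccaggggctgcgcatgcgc
Hapln1: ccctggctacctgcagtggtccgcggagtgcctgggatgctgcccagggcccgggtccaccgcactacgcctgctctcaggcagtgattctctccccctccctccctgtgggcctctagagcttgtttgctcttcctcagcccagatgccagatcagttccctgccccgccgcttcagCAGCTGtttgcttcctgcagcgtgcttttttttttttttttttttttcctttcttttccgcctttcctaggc
Tnr: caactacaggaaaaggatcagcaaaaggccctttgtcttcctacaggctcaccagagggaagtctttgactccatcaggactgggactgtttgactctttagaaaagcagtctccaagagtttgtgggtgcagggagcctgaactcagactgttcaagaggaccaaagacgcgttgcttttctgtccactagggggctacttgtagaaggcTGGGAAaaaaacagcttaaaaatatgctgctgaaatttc
Tnc: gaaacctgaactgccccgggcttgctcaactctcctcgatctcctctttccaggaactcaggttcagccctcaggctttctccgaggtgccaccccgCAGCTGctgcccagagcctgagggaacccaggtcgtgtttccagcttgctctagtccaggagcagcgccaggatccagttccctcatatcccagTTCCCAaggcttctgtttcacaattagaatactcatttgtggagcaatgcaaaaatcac
The capitals in Ncan are an NFI site (TTGGCA), the reverse complement of the RBPJ core (TGGGAA) and an E-box (CAGCTG) whose first base lies 29 bases upstream of the start site. Hapln1 held the same E-box, starting 72 bases upstream. Tnr held the RBPJ core alone, starting 39 bases upstream, and Tnc held the E-box and the reverse complement of the RBPJ core. None of these matches shared a base with another. Over the 250-base windows of 21770 protein-coding genes, CAGCTG was present in 11.9%, TGGGAA in 22.7% and TTGGCA in 12.3%. Among the 10 genes CAGCTG was found in 5 (Bcan, Ncan, Acan, Tnc and Hapln1), TGGGAA in 5 (Bcan, Ncan, Ptprz1, Tnc and Tnr) and TTGGCA in 4 (Bcan, Ncan, Vcan and Cspg4). These are letter matches only, and Tnc and Ncan, whose levels went opposite ways, shared 2 of them. The other 6 motifs were the GC-rich SMAD element GGCGCC (9.31% of all windows), the E-box CACGTG (6.26%), the ETS core CCGGAA (12.4%), the AP-1 site TGACTCA (4.02%), the SOX motif ACAATG (9.41%) and the TEAD motif GGAATG (12.1%). Among the 10 genes GGCGCC was found in Cspg4, CCGGAA in Ptprz1 and ACAATG in both of these, and the remaining 3 motifs had no match.

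Ncan, the gene for neurocan, lies at chr8:70538926-70573523 on the minus strand (ENSMUSG00000002341). Its FPKM in the 3 libraries was 126, 144 and 131 in bFGF/EGF-treated NSCs, 3407, 3247 and 3670 in bFGF/BMP4-treated NSCs, and 241, 239 and 441 in BMP4-treated NSCs. No 2 groups overlapped, and BMP4 replicate 3 stood well above the other two of its group. In every bFGF/BMP4 library Ncan ranked 5 among all genes by FPKM, against ranks 238 to 306 in bFGF/EGF and 49 to 138 in BMP4. It rose 25.7-fold in bFGF/BMP4 relative to bFGF/EGF (log2 fold change 4.68, SE 0.24, adjusted p = 3.7e-07). It rose 2.20-fold in BMP4 relative to bFGF/EGF (1.14, adjusted p = 0.0023), a change that fell under the fold threshold without BMP4 replicate 3 (0.85). Between the BMP4 media it fell 11.7-fold in BMP4 alone (adjusted p = 8.8e-06).

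Bcan encodes brevican, the smallest lectican, and lies at chr3:87894835-87910177 on the minus strand (ENSMUSG00000004892). Its FPKM was 67.2, 69.4 and 65.8 in bFGF/EGF, 867.5, 768 and 798 in bFGF/BMP4, and 402, 416 and 419 in BMP4. The 3 groups were fully separate and each was tight, with a coefficient of variation of 2.70%, 6.29% and 2.15%. Bcan rose 12-fold in bFGF/BMP4 (log2 fold change 3.58, SE 0.12, adjusted p = 4.3e-08) and 6.10-fold in BMP4 (2.61, adjusted p = 1.7e-07) relative to bFGF/EGF. The level in BMP4 alone was 1.97-fold lower than in bFGF/BMP4 (adjusted p = 0.00034), which missed the fold threshold and passed it without bFGF/BMP4 replicate 2 (log2 fold change -1.01).

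Vcan, the versican gene at chr13:89803431-89890814 (minus strand, ENSMUSG00000021614), moved differently from Ncan and Bcan. Its FPKM was 8.29, 4.59 and 7.02 in bFGF/EGF, 2.38, 3.29 and 3.00 in bFGF/BMP4, and 7.19, 4.74 and 5.87 in BMP4. The bFGF/BMP4 libraries were below all others, and the other 2 groups overlapped. Vcan fell 2.20-fold in bFGF/BMP4 relative to bFGF/EGF (log2 fold change -1.14, SE 0.24, adjusted p = 0.0028) and was 2.01-fold higher in BMP4 than in bFGF/BMP4 (1.00, adjusted p = 0.013). Both values lay near the fold threshold. The first passed under it with a pseudocount of 1 (-0.95) and without bFGF/EGF replicate 1 (-0.96). The second did so with a pseudocount of 1 (0.82), with median-ratio scaling (0.99), without bFGF/BMP4 replicate 1 (0.88) and without BMP4 replicate 1 (0.86). Between BMP4 and bFGF/EGF the log2 difference was -0.14, with a 95% interval from -0.67 to 0.40 and an adjusted p of 0.66.

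Acan, the aggrecan gene at chr7:78702964-78764847 (plus strand, ENSMUSG00000030607), averaged 0.0548, 0.0700 and 0.0931 FPKM across the 3 groups. These values rested on 3 to 19 fragments per library, and all groups overlapped. Its mean was under the 0.1 FPKM needed to enter the test. In the fit with no filter on low values its log2 differences were 0.16, 0.31 and 0.15 in the 3 comparisons, with an SE of 0.29 and adjusted p of 0.76, 0.45 and 0.82, so no difference was detectable at this depth.

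**Figure D2:**
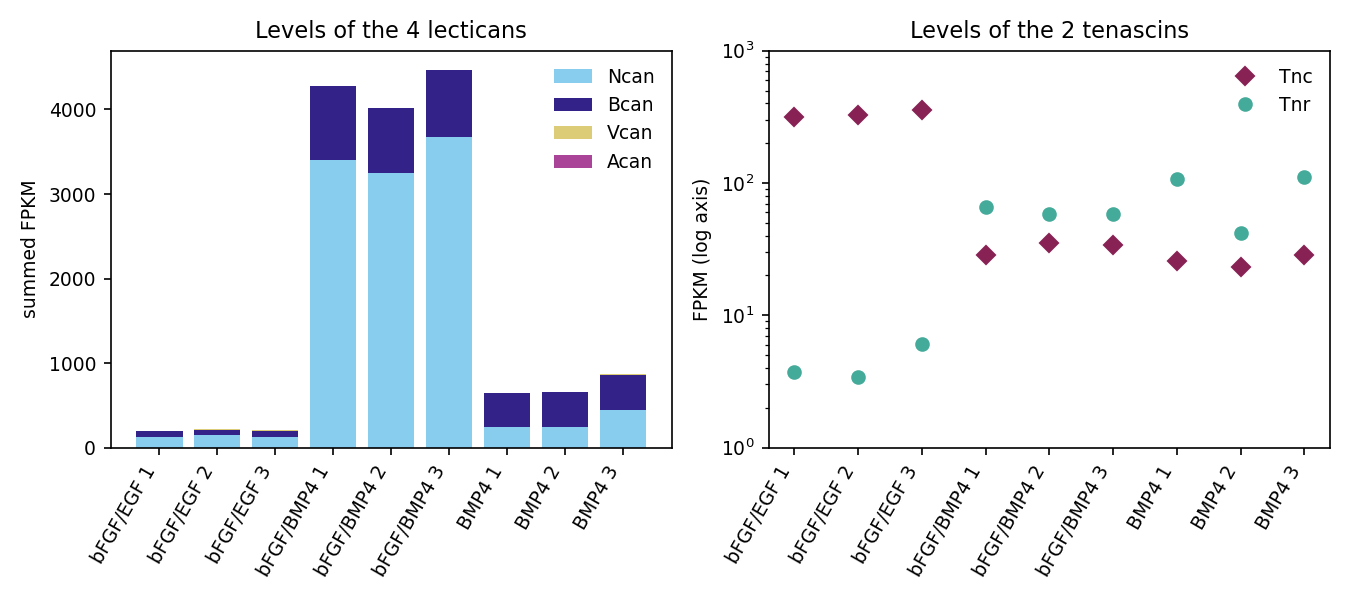
Left, FPKM of the 4 lecticans stacked for each library on a linear axis from 0. Right, FPKM of Tnc (diamonds) and Tnr (circles) for each library on a log axis. The summed lectican level was 202 to 218 in bFGF/EGF, 4018 to 4471 in bFGF/BMP4 and 651 to 866 in BMP4, with Vcan and Acan too low to see, and Tnc lay above Tnr in the 3 bFGF/EGF libraries and below it in the other 6.

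Because FPKM is scaled by transcript length, the lecticans can be set against each other. Ncan made up 64.3% ± 1.8 (SD, n = 3) of the summed lectican FPKM in the controls, 80.9% ± 1.2 in bFGF/BMP4 and 41.4% ± 8.2 in BMP4. Bcan made up 32.5% ± 0.76, 19.1% ± 1.2 and 57.7% ± 8.1. The order of the leading lecticans was therefore Ncan over Bcan in all bFGF/EGF and bFGF/BMP4 libraries, by 1.88- to 2.08-fold and 3.93- to 4.60-fold. In BMP4 the ratio of Ncan to Bcan was 0.600, 0.575 and 1.05, so the levels of the 2 genes overlapped there. Vcan contributed 2.10% to 4.11% in bFGF/EGF, at most 0.0818% in bFGF/BMP4 and at most 1.11% in BMP4.

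Hapln1 encodes a link protein that ties lecticans to hyaluronan (chr13:89686581-89759950, plus strand, ENSMUSG00000021613). It had 0, 2 and 0 fragments in the bFGF/EGF libraries, 151, 232 and 173 in bFGF/BMP4, and 43, 52 and 63 in BMP4. The corresponding FPKM was 0, 0.0214 and 0, then 1.59, 2.56 and 1.99, then 0.449, 0.544 and 0.647. Against a floor of 3 fragments per library, Hapln1 was at least 67.7-fold higher in bFGF/BMP4 and at least 18.1-fold higher in BMP4 than in bFGF/EGF (adjusted p = 2.0e-06 and 3.7e-05). It fell 3.29-fold in BMP4 relative to bFGF/BMP4 (log2 fold change -1.72, SE 0.29, adjusted p = 0.0019). At these low levels the pseudocount mattered, and with a pseudocount of 1 the log2 differences of BMP4 from bFGF/EGF and from bFGF/BMP4 were 0.62 and -0.97, both under the fold threshold. Hapln1 entered the test through the groups in which it was high.

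In the mouse genome each lectican gene has a link protein gene beside it, with no other annotated gene between them, and the pairs did not share one pattern. Ncan overlaps Hapln4 by 4608 bases on opposite strands. Hapln4, which encodes a link protein of perineuronal nets, had 2.44, 2.34 and 2.93 FPKM in bFGF/EGF, 16.2, 22.4 and 16.7 in bFGF/BMP4, and 0.957, 1.16 and 1.58 in BMP4. It rose in bFGF/BMP4 (log2 fold change 2.79, SE 0.20, adjusted p = 3.5e-06), and was lower in BMP4 than in bFGF/BMP4 (-3.81, adjusted p = 3.0e-06). It was also lower in BMP4 than in bFGF/EGF (-1.02, adjusted p = 0.0017), where Ncan was higher. That last value fell under the threshold with a pseudocount of 1 (-0.68) and without bFGF/EGF replicate 3 (-0.93), BMP4 replicate 1 (-0.87), and BMP4 replicate 2 (-0.997). Hapln4 had 0.883% to 1.22% as many fragments as Ncan in bFGF/EGF, and 0.195% to 0.376% in the other 6 libraries. Whether fragments were counted by strand was not given in the sources used here, and without strand the reads of 2 overlapping genes cannot be told apart.

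Vcan and Hapln1 lie tail to tail, 43480 bases apart. Hapln1 was highest in bFGF/BMP4, the group in which Vcan was lowest. Bcan and Hapln2 lie on the same strand, 16622 bases apart, and Acan and Hapln3 lie tail to tail, 2 bases apart. Hapln2, a link protein of nodes of Ranvier, stayed between 0 and 0.394 FPKM in the 9 libraries, and Hapln3 between 0.230 and 0.540 FPKM. Neither passed the test in any comparison, with adjusted p from 0.27 to 0.99. Among the link proteins, Hapln4 was thus at a higher FPKM than Hapln1 in every library.

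**Figure D3:**
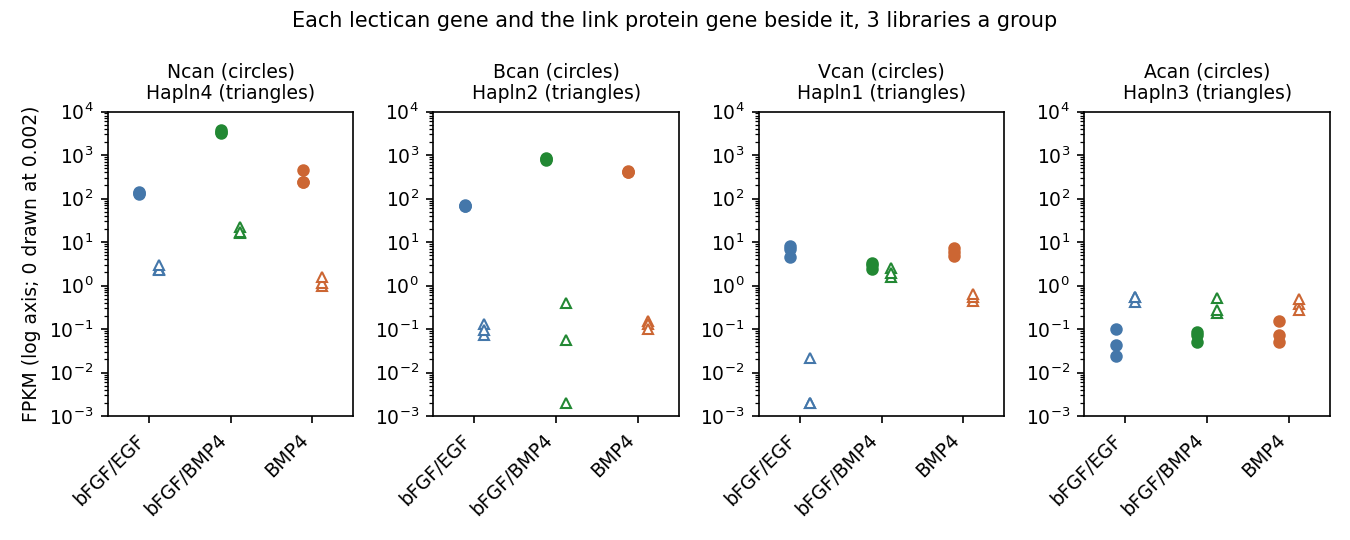
FPKM on a log axis of each lectican gene (filled circles) and of the link protein gene beside it (open triangles), with 3 libraries per group and values of 0 drawn at 0.002. Hapln4 was highest in bFGF/BMP4 at 16.2 to 22.4 FPKM, as was Hapln1 at 1.59 to 2.56, while Hapln2 and Hapln3 stayed at or below 0.540.

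The tenascins went in opposite directions. Tnc encodes tenascin-C, the hexameric tenascin of germinal zones, and lies at chr4:63878014-63965443 on the minus strand (ENSMUSG00000028364). It was the most abundant of the 10 transcripts in bFGF/EGF-treated NSCs, at 314, 324 and 354 FPKM. It was at 28.6, 35.2 and 33.8 FPKM in bFGF/BMP4 and at 25.7, 23.2 and 28.8 in BMP4, far below every control library. Tnc fell 10.2-fold in bFGF/BMP4 (log2 fold change -3.35, SE 0.12, adjusted p = 7.0e-08) and 12.8-fold in BMP4 (-3.67, adjusted p = 2.4e-08). The 2 BMP4 media overlapped and differed by -0.33, with a 95% interval from -0.61 to -0.05 and an adjusted p of 0.097. An antisense lncRNA, 8030451A03Rik, shares 67353 bases with Tnc and averaged 4.76 FPKM in the controls, 1.23 in bFGF/BMP4 and 0.290 in BMP4, values that may hold reads of Tnc, since the strand of counting was not given.

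Tnr encodes tenascin-R, the main tenascin partner of the lecticans, and lies at chr1:159351339-159759299 on the plus strand (ENSMUSG00000015829). Its FPKM was 3.74, 3.44 and 6.12 in bFGF/EGF, 66.4, 58.5 and 57.8 in bFGF/BMP4, and 108, 41.6 and 111 in BMP4. Both BMP4 media lay above every control library, and BMP4 replicate 2 lay below all bFGF/BMP4 libraries while the other two lay above them. Tnr rose 13.9-fold in bFGF/BMP4 (log2 fold change 3.79, SE 0.35, adjusted p = 1.7e-05) and 18.1-fold in BMP4 (4.18, adjusted p = 6.0e-06). Between the BMP4 media the difference was 0.38, with a 95% interval from -0.40 to 1.17 and an adjusted p of 0.51. Per length, Tnc exceeded Tnr by 57.8- to 94.2-fold in bFGF/EGF, whereas Tnr exceeded Tnc by 1.66- to 2.32-fold in bFGF/BMP4 and by 1.79- to 4.20-fold in BMP4.

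Ptprz1, at chr6:22875358-23054236 on the plus strand (ENSMUSG00000068748), had 137, 112 and 163 FPKM in bFGF/EGF, 153, 181 and 192 in bFGF/BMP4, and 51.2, 48.2 and 64.1 in BMP4. The BMP4 libraries were below all others, and the other 2 groups overlapped. Ptprz1 fell 2.51-fold in BMP4 relative to bFGF/EGF (log2 fold change -1.33, SE 0.17, adjusted p = 0.00011) and 3.22-fold relative to bFGF/BMP4 (-1.69, adjusted p = 9.6e-05). Between bFGF/BMP4 and bFGF/EGF the difference was 0.36, with a 95% interval from -0.03 to 0.74 and an adjusted p of 0.11. Ptn, which encodes its ligand pleiotrophin, had 255, 217 and 242 FPKM in bFGF/EGF, 221, 186 and 201 in bFGF/BMP4, and 53.9, 81.2 and 78.7 in BMP4. Ptn fell by 1.76 (SE 0.17, adjusted p = 1.5e-05) and 1.53 (adjusted p = 0.00016) on the log2 scale in BMP4 relative to bFGF/EGF and bFGF/BMP4. Mdk, the gene of the related ligand midkine, was at 0.279 to 1.03 FPKM throughout and passed no test, with adjusted p from 0.42 to 0.71.

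Cspg5, at chr9:110072851-110091644 on the plus strand (ENSMUSG00000032482), was the proteoglycan whose level in BMP4 alone was nearest to the controls. Its FPKM was 19.4, 22.7 and 19.4 in bFGF/EGF, 81.2, 51.0 and 62.2 in bFGF/BMP4, and 16.0, 20.7 and 21.5 in BMP4. The bFGF/BMP4 libraries stood above all others. Cspg5 rose 3.10-fold in bFGF/BMP4 relative to bFGF/EGF (log2 fold change 1.63, SE 0.18, adjusted p = 5.1e-05), and was 3.29-fold lower in BMP4 than in bFGF/BMP4 (adjusted p = 0.00011). The log2 difference between BMP4 and bFGF/EGF was -0.09, with a 95% interval from -0.49 to 0.32 and an adjusted p of 0.71.

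Cspg4, at chr9:56772317-56807187 on the plus strand (ENSMUSG00000032911), had 10.8, 14.8 and 13.9 FPKM in bFGF/EGF, 4.28, 3.21 and 3.82 in bFGF/BMP4, and 4.23, 2.11 and 3.49 in BMP4. All control libraries lay above all others. Cspg4 fell 3.42-fold in bFGF/BMP4 (log2 fold change -1.78, SE 0.24, adjusted p = 0.00020) and 4.06-fold in BMP4 (-2.02, adjusted p = 6.4e-05), with a difference between the BMP4 media of -0.24 and an adjusted p of 0.55. Of 8 oligodendrocyte precursor markers, 5 were lower and 1 higher in bFGF/BMP4 relative to bFGF/EGF, and 6 were lower in BMP4 relative to bFGF/EGF, with the other 2 not passing the thresholds. Of all tested genes, 14.1% were called lower and 16.5% higher in the first comparison, and 15.4% and 21.3% in the second. The markers Pdgfra, Sox10 and Gpr17, lower in both comparisons, were below 1 FPKM in all groups. The marker that was higher in bFGF/BMP4 was Opcml (0.879, 3.42 and 1.40 FPKM), and Lhfpl3 (24.7, 47.4 and 17.9 FPKM) passed the thresholds in neither comparison. Olig1 averaged 1352, 1254 and 275 FPKM and Olig2 averaged 565, 245.5 and 31.7 FPKM in bFGF/EGF, bFGF/BMP4 and BMP4, and the summed list, to which these 2 genes contributed most, was 1588 to 2280, 1352 to 1854 and 228 to 445 FPKM. In BMP4 relative to bFGF/BMP4, where Cspg4 was not called, 5 of the 8 markers were lower and 0 higher, against 5.14% and 8.41% of all tested genes. The part of cell identity in the level of Cspg4 was not tested.

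**Figure D4:**
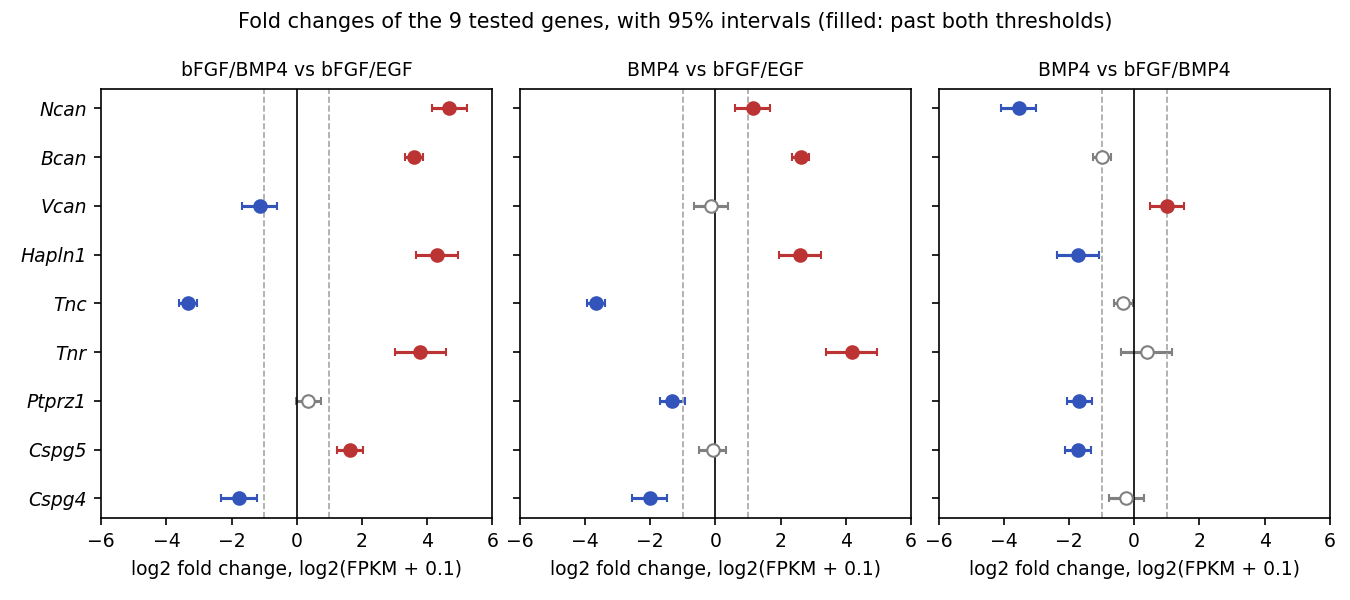
Log2 fold changes of the 9 tested genes on the log2(FPKM + 0.1) scale, with 95% intervals, in the 3 comparisons. Filled points passed the thresholds of 0.05 on the adjusted p and of 2-fold (dashed lines), red for higher and blue for lower, and the point for Hapln1 against bFGF/EGF depends on the pseudocount because the gene was at most at 2 fragments there.

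Of the 10 genes, 9 were tested. In bFGF/BMP4 relative to bFGF/EGF, 5 were higher (Bcan, Ncan, Tnr, Hapln1 and Cspg5) and 3 lower (Tnc, Cspg4 and Vcan), where 16.5% of all tested genes were called higher and 14.1% lower. In BMP4 relative to bFGF/EGF, 4 were higher (Bcan, Ncan, Tnr and Hapln1) and 3 lower (Tnc, Cspg4 and Ptprz1), against 21.3% and 15.4% of all genes. Hapln1 entered the test only through the groups in which it was high. Its place in these counts against bFGF/EGF is therefore not independent of the filter. In BMP4 relative to bFGF/BMP4, 1 was higher (Vcan) and 4 were lower (Ncan, Hapln1, Cspg5 and Ptprz1), against 8.41% and 5.14%. The median log2 differences of the tested members were 1.63, -0.09 and -0.98, and those of all tested genes 0.06, 0.10 and 0.00. Within bFGF/EGF the order of levels ran from Tnc through Ptprz1, Ncan, Bcan, Cspg5, Cspg4, Vcan and Tnr to Acan and Hapln1, with Ptprz1 and Ncan overlapping, and Vcan and Tnr as well. In bFGF/BMP4 it began with Ncan, Bcan and Ptprz1, Cspg5 overlapped Tnr, and Vcan overlapped both Cspg4 and Hapln1. In BMP4 it began with Bcan and Ncan, which overlapped, followed by Tnr and Ptprz1, which also overlapped. Of the 8 astrocyte markers given above, 7 moved with Bcan, Ncan, Hapln1 and Tnr against bFGF/EGF, and Aldh1l1 moved the other way. Between the BMP4 media 2 of them (Slc1a2 and Gjb6) were lower in BMP4, as Ncan and Hapln1 were, and 5 were higher. Their part in these differences was not tested.

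The genes that attach and process the matrix around these proteoglycans were examined as 5 lists. Of the 7 lectican-cleaving ADAMTS proteases, all of them tested, 5 fell in bFGF/BMP4 relative to bFGF/EGF and 1 rose, with a median of -1.42, where 14.1% of all genes were called lower and 16.5% higher. In BMP4 relative to bFGF/BMP4, 4 were higher, against 8.41% of all genes, and the other 3 did not pass the thresholds, with a median of 1.21. Among those that fell, Adamts5, Adamts15 and Adamts20 were scarce, averaging 0.699, 0.288 and 0.448 FPKM over the 9 libraries. Adamts15 and Adamts20, both higher in BMP4 than in bFGF/BMP4, had 9 to 20 fragments per bFGF/BMP4 library. They averaged 0.0936 and 0.0973 FPKM in bFGF/BMP4, and entered the test only through the groups in which they were higher. Both list medians are the values of Adamts15. The ADAMTS counts and medians in the comparisons with bFGF/BMP4 are therefore not independent of the filter. Adamts4 averaged 3.31, 2.00 and 2.545 FPKM in bFGF/EGF, bFGF/BMP4 and BMP4 and was called in no comparison. Adamts9 had 7.78, 7.38 and 6.66 FPKM in bFGF/EGF, 1.23, 1.29 and 1.46 in bFGF/BMP4, and 6.60, 4.30 and 7.70 in BMP4. It fell in bFGF/BMP4 (log2 fold change -2.37, adjusted p = 1.1e-05) and was higher in BMP4 than in bFGF/BMP4 (2.10, adjusted p = 7.1e-05). Adamts8 averaged 3.48, 0.305 and 2.20 FPKM, with log2 differences of -3.20 (adjusted p = 2.1e-05) and 2.58 (adjusted p = 0.00024). Adamts1, the most abundant of them at 17.9 to 45.4 FPKM, was the one that was higher in bFGF/BMP4 (1.00, adjusted p = 0.00047), a value at the fold threshold that lost its call under 7 of 16 alternatives. In BMP4 relative to bFGF/EGF only Adamts5 of the 7 passed both thresholds, and it was lower (-2.79). Adamts1 (0.86, adjusted p = 0.001) and Adamts20 (0.97, adjusted p = 0.036) were higher but short of the 2-fold threshold.

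Of 24 tested enzymes of chondroitin sulfate assembly, 1 was higher and 5 lower in bFGF/BMP4 relative to bFGF/EGF, 2 were higher and 7 lower in BMP4 relative to bFGF/EGF, and 2 were higher and 3 lower between the BMP4 media. Of all tested genes, 16.5% and 14.1%, 21.3% and 15.4%, and 8.41% and 5.14% were called higher and lower in these comparisons. Papss2, which makes the sulfate donor PAPS, had 0.127, 0.0510 and 0.243 FPKM in bFGF/EGF, 0.769, 1.63 and 1.39 in bFGF/BMP4, and 85.7, 116 and 77.4 in BMP4. It rose by a log2 difference of 8.66 in BMP4 relative to bFGF/EGF (SE 0.34, adjusted p = 5.5e-08) and of 6.13 relative to bFGF/BMP4 (adjusted p = 3.8e-06). Its paralog Papss1 averaged 55.2, 61.9 and 45.1 FPKM and was not called, and is named beside it after its values were seen. Chst7, a chondroitin 6-O-sulfotransferase, averaged 94.9, 63.4 and 6.09 FPKM and fell in BMP4 relative to bFGF/EGF (-3.94, SE 0.15, adjusted p = 5.1e-08) and to bFGF/BMP4 (-3.35, adjusted p = 1.4e-06). Chst3, another enzyme of that activity, averaged 3.54, 1.25 and 3.92 FPKM, fell in bFGF/BMP4 (-1.45, adjusted p = 0.00030) and was higher in BMP4 than there (1.59, adjusted p = 0.00047). Xylt1, which starts the chain on the core protein, averaged 52.6, 26.8 and 5.67 FPKM and fell in BMP4 (-3.20, adjusted p = 2.5e-06). Chsy1, a chondroitin synthase, averaged 20.7, 5.03 and 3.94 FPKM, and Csgalnact1, which commits the chain to chondroitin, averaged 6.47, 1.75 and 2.44 FPKM. Both fell in bFGF/BMP4 relative to bFGF/EGF, by 2.04 and 1.82 on the log2 scale (adjusted p = 1.0e-05 and 3.6e-05). Dsel, a dermatan sulfate epimerase, was higher in BMP4 than in bFGF/EGF by 1.06 (adjusted p = 0.00082), and with a pseudocount of 1 (0.81) and without bFGF/EGF replicate 2 (0.89) or BMP4 replicate 1 (0.97) it was under the fold threshold.

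Of the genes of hyaluronan synthesis, binding and turnover together with the other link proteins, 14 of 15 were tested. In bFGF/BMP4 relative to bFGF/EGF 4 were higher and 5 lower, in BMP4 relative to bFGF/EGF 4 were higher and 7 lower, and in BMP4 relative to bFGF/BMP4 3 were higher and 2 lower. The shares of all genes called higher and lower were 16.5% and 14.1%, 21.3% and 15.4%, and 8.41% and 5.14%. The hyaluronan receptor Cd44 averaged 7.13, 4.19 and 31.8 FPKM and rose in BMP4 relative to bFGF/BMP4 (log2 fold change 2.90, SE 0.16, adjusted p = 3.9e-06). Tnfaip6, whose product transfers heavy chains to hyaluronan, averaged 20.1, 4.18 and 2.60 FPKM and fell in both BMP4 media (-2.25 and -2.91, adjusted p = 1.7e-06 and 2.6e-07). Hyal1, a lysosomal hyaluronidase, rose in BMP4 from a mean of 0.412 to 4.30 FPKM (3.07, adjusted p = 5.6e-06), and Cemip, which is needed for hyaluronan breakdown at the cell surface, fell in bFGF/BMP4 from 2.86 to 0.214 FPKM (-3.24, adjusted p = 1.0e-05). Hmmr, a hyaluronan-binding protein of the mitotic spindle, averaged 11.4, 3.97 and 0.824 FPKM and fell in BMP4 (-3.52, adjusted p = 1.1e-05). Itih5, an inter-alpha-trypsin inhibitor heavy chain, averaged 0.0368, 1.96 and 1.15 FPKM and rose in both BMP4 media (adjusted p = 2.7e-05 and 6.6e-05). Itih5, and Itih3 with at most 2 fragments in every bFGF/EGF library, entered the test only through the groups in which they were high.

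Among 24 ligands and partners of the lecticans, tenascins and Ptprz1, 8 were higher and 5 lower in bFGF/BMP4 relative to bFGF/EGF, 6 were higher and 7 lower in BMP4 relative to bFGF/EGF, and 3 were higher and 6 lower in BMP4 relative to bFGF/BMP4. Across all genes the calls were 16.5% higher and 14.1% lower, 21.3% and 15.4%, and 8.41% and 5.14%. The neural adhesion molecules L1cam and Nrcam, which bind neurocan, rose in both BMP4 media. L1cam averaged 0.106, 7.10 and 11.99 FPKM (log2 differences from bFGF/EGF of 5.14 and 5.88, adjusted p = 5.6e-08 and 1.6e-08), and Nrcam averaged 9.06, 70.5 and 49.3 FPKM (2.93 and 2.42, adjusted p = 4.4e-07 and 9.8e-07). The fibulins, lectican-binding proteins of the matrix, fell. Fbln2 averaged 30.1, 0.606 and 0.321 FPKM (-5.39 and -6.16, adjusted p = 7.7e-08 and 2.4e-08) and Fbln1 averaged 6.80, 0.213 and 0.674 FPKM (-4.46 and -3.12, adjusted p = 1.3e-06 and 8.5e-06). The integrin subunit gene Itgav averaged 14.8, 53.8 and 9.71 FPKM and the Nogo receptor homologue Rtn4rl1 averaged 4.49, 25.5 and 5.25 FPKM, and both were lower in BMP4 than in bFGF/BMP4 (-2.44 and -2.26, adjusted p = 1.6e-05 and 6.4e-06). Itgb8 was higher there by 1.01 (adjusted p = 0.00080), a value under the fold threshold with a pseudocount of 1 (0.97), without bFGF/BMP4 replicate 3 (0.97) and without BMP4 replicate 1 (0.94). Egfr, the receptor for EGF, which only the control medium contained, had 44.9, 41.2 and 42.1 FPKM in bFGF/EGF, 7.31, 5.62 and 6.03 in bFGF/BMP4, and 6.96, 4.91 and 7.14 in BMP4. It fell by 2.75 on the log2 scale in each BMP4 medium (adjusted p = 8.9e-07 and 6.3e-07), with a difference between them of -0.01 (adjusted p = 0.99).

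Of the remaining tenascins and matrix proteoglycans, 19 were tested. In bFGF/BMP4 relative to bFGF/EGF 12 were higher and 2 lower, against 16.5% and 14.1% of all genes, and in BMP4 relative to bFGF/EGF 11 were higher and 2 lower, against 21.3% and 15.4%, with medians of 1.64 and 1.73. In BMP4 relative to bFGF/BMP4 8 were higher and 5 lower, against 8.41% and 5.14%, with a median of 0.46. With undetected genes at their bounds the second median was 1.81. Of the 19, 4 (Bgn, Fmod, Omd and Tnn) had at most 3 fragments in every bFGF/EGF library, and Ogn and Spock1 averaged below 0.1 FPKM there. These genes entered the test only through the groups in which they were high. The counts of genes higher than in bFGF/EGF are therefore not independent of the filter. Fmod, the gene of the small leucine-rich proteoglycan fibromodulin, had no fragment in any bFGF/EGF library, 22.2, 28.8 and 30.4 FPKM in bFGF/BMP4, and 156, 153 and 158 FPKM in BMP4. Against a floor of 3 fragments per library it was at least 502-fold higher in bFGF/BMP4 and at least 2880-fold higher in BMP4. Ogn, osteoglycin, averaged 0.0552, 0.783 and 28.1 FPKM and was higher in BMP4 than in bFGF/BMP4 (5.08, SE 0.34, adjusted p = 8.8e-06). Spock1 and Gpc3 showed the reverse order, averaging 0.0795, 10.1 and 0.397 FPKM and 0.284, 5.74 and 0.486 FPKM, and both were lower in BMP4 than in bFGF/BMP4 (-4.38 and -3.30, adjusted p = 1.4e-05 and 0.00012). Sdc1, a syndecan, averaged 18.1, 2.05 and 6.39 FPKM and fell in both media relative to bFGF/EGF (-3.08 and -1.47, adjusted p = 3.5e-06 and 0.00032). Gpc1 averaged 38.7, 15.9 and 29.4 FPKM and fell in bFGF/BMP4 (-1.26, adjusted p = 0.00034), and Spock2 averaged 10.1, 10.9 and 2.69 FPKM and fell in BMP4 (-1.87, adjusted p = 3.1e-06).

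**Figure D5:**
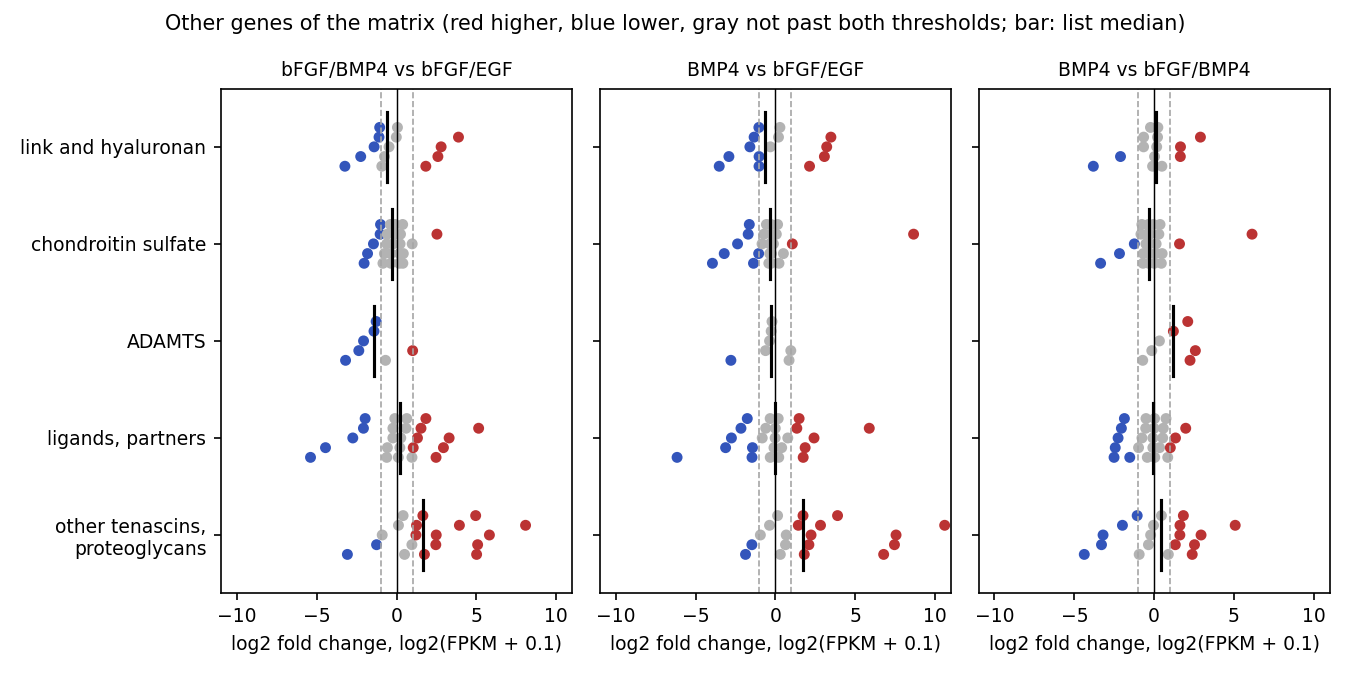
Log2 fold changes on the log2(FPKM + 0.1) scale of the tested genes of the 5 lists, 1 point per gene, in the 3 comparisons, with a bar at each list's median. The ADAMTS proteases lay mostly below 0 in bFGF/BMP4 relative to bFGF/EGF (median -1.42) and mostly above 0 in BMP4 relative to bFGF/BMP4 (median 1.21). Both medians are the values of Adamts15, which was below 0.1 FPKM on average in bFGF/BMP4. The points for genes undetected in bFGF/EGF depend on the pseudocount.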

How the data were processed

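The expression of adult mouse NSCs was measured by bulk RNA-seq in 9 libraries, 3 of each medium (bFGF/EGF, bFGF/BMP4, BMP4), grouped by the labels. The deposited values are FPKM per Ensembl gene, made by the authors from counts of aligned reads. Per the submitters' processing notes, fastp 0.19.7, HISAT2 2.0.5 and featureCounts 1.5.0-p3 were used with mm39. The annotation release and whether counting used strand were not given in the sources used here. Of the 55704 genes, 54749 were matched to GENCODE vM39 for symbols and coordinates. Whole fragment numbers, used for depth and floors, were rebuilt from the FPKM steps for all 30860 genes above 0, which gave 15902180 to 17288931 fragments per library. For 790 genes the rebuilt numbers were multiplied by a shared divisor. The length implied by the rebuilt numbers equalled the GENCODE vM39 exon length in 35.3% of the rebuilt genes. The library divisor of the FPKM was not each library's own number of fragments on genes. Relative to that number it was 0.994 to 1.072 in bFGF/EGF, 0.919 to 0.967 in bFGF/BMP4 and 0.937 to 0.982 in BMP4. A smaller divisor raises the FPKM of a library, and the limma-voom alternative does not use this divisor. Intervals and floors cover the spread between libraries or counting error only.

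All 9 libraries were fitted with limma 3.58.1 (R 4.3.3, intensity trend) on log2(FPKM + 0.1) over the 20207 genes whose FPKM averaged 0.1 or more, with Benjamini-Hochberg adjustment over all of them. A fold change is on that scale and understates the change of low genes. This fit was tested on simulated data. The thresholds, 0.05 for the adjusted p and 2-fold for the difference, follow the study's methods, and limma replaced its count test because the deposited files hold FPKM. Alternatives were a pseudocount of 1, no filter, a mean FPKM of at least 1, median-ratio scaling, limma-voom on the rebuilt fragments, only the groups compared, a replicate block, no fold threshold, and each library left out.

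The members and lists were chosen with earlier results of these data known. Named were the 10 members, Hapln2, Hapln3, Hapln4, Egfr, Ptn and Mdk, and per list and comparison the 2 largest rises and falls past the threshold with a mean FPKM of at least 1. Promoter windows were read from GRCm39 at the start of the canonical GENCODE vM39 transcript. Figures were drawn with matplotlib.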

Additional observations from a re-analysis of the deposited data

How the results depend on the processing

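The number of the 10 members called higher in BMP4 than in bFGF/BMP4, which was 1 (Vcan), was 0 with a pseudocount of 1 and with median-ratio scaling, and 0 to 1 when 1 library was left out. No member reversed direction past the threshold under any alternative. Changed calls of Ncan, Vcan, Hapln1, Bcan, Hapln4 and Itgb8, and of Dsel in BMP4, stand beside their values. Adamts1 in bFGF/BMP4 was at 0.89 to 0.99 where its call was lost (a pseudocount of 1, median-ratio scaling, limma-voom, and without replicate 2 or 3 of bFGF/EGF or of bFGF/BMP4), and Dsel in bFGF/BMP4 passed the threshold without bFGF/EGF replicate 1 or 3 or bFGF/BMP4 replicate 1 (1.04 to 1.08). Xylt1 in bFGF/BMP4 lost its call without bFGF/BMP4 replicate 1 (-0.72), and with a pseudocount of 1 so did Papss2 (0.97) and Ogn (0.74) in bFGF/BMP4 relative to bFGF/EGF, Spock1 in BMP4 relative to bFGF/EGF (0.37), and Cemip (0.62) and Fbln1 (0.47) in BMP4 relative to bFGF/BMP4. The cause of these changes was not tested. Over all genes a pseudocount of 1 gave 1723 higher and 1821 lower in bFGF/BMP4 relative to bFGF/EGF, against 3327 and 2847, and 890 and 559 in BMP4 relative to bFGF/BMP4, against 1699 and 1039. Same-numbered libraries correlated at -0.084 to 0.125 in their deviations from the group means, with 1 of 9 pairs over 0.1. The 18 pairs of unlike number correlated at -0.154 to 0.081. With 3 libraries in each group these values cannot settle whether same-numbered libraries were paired, for example by a shared isolation. With the replicate block the members called higher and lower stayed 5 and 3 in bFGF/BMP4 relative to bFGF/EGF, 4 and 3 in BMP4 relative to bFGF/EGF, and 1 and 4 in BMP4 relative to bFGF/BMP4, and no call of a named gene changed. Of the 9 libraries, 0 correlated best with a library of its own number in each of the other groups. Levels resting on few fragments, those of Acan and of Hapln1 in bFGF/EGF, are limited by depth.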
